A study of Mus musculus with 19 samples.

Results

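Solute carriers are the membrane proteins that move sugars, amino acids, ions, metals, nucleosides and small organic molecules across cell and organelle membranes. They were followed here through the development of mouse Schwann cells, the glia of peripheral nerve, from their neural crest origin to birth. All probe sets were taken whose 1 annotated gene symbol is Slc followed by a number, which gave 185 probe sets for 151 genes among 12422 probe sets that are not controls. Of these, 155 probe sets for 135 genes were above a floor of 68.5 index units on at least 3 arrays and were tested, beside 10414 tested probe sets in all.

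Every sample is RNA of green fluorescent cells, sorted by flow cytometry from transgenic mice in which a glial promoter drives the fluorescent protein. The transgene is therefore shared by all groups; its promoter works in stem cells of the crest and afterwards in glial cells. The groups are trunk cells at embryonic day 9.5 (E9.5, labelled neural crest stem cells, 3 arrays) and sciatic nerve cells at E12 (3 arrays), E14 (3), E16 (4), E18 (3) and the day of birth (P0, 3). E12 against E9.5 compares body regions as well as ages, which cannot be told apart. The arrays are Affymetrix mouse arrays, hybridized with RNA amplified by 2 rounds of in vitro transcription. The deposited value is a model-based expression index, linear in brightness, with 1 value per probe set and array. Its size depends on the probes, so levels are compared here only between stages of the same probe set.

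Carriers are grouped in families by sequence, and most couple the movement of their substrate to a gradient of sodium, chloride or protons or exchange one solute for another. Taurine, creatine and choline carriers supply osmolytes, an energy buffer and a lipid precursor. Cation-chloride cotransporters either bring chloride into the cell (Slc12a2) or let potassium and chloride leave it (Slc12a7), and so set cell volume and intracellular chloride. Glucose and monocarboxylate carriers pass fuel between blood, glia and axons, and Schwann cells depend on several of these families when they enwrap axons and build myelin.

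The promoters of 3 carriers that changed between E9.5 and E12 are shown because they differ in a short motif, ACGTG, the core letters of the hypoxia response element. The sequences are RefSeq's for GRCm38.p6, 250 bases before to 50 after an annotated start, all on the plus strand of their chromosome. Capitals mark ACGTG on either strand. In Slc12a7 (chr13:73763410-73763709, around an internal start of the gene) 2 matches on opposite strands overlap; Slc2a1 (chr4:119108495-119108794) has 1 match and Slc44a1 (chr4:53440163-53440462) has 0.
Slc12a7: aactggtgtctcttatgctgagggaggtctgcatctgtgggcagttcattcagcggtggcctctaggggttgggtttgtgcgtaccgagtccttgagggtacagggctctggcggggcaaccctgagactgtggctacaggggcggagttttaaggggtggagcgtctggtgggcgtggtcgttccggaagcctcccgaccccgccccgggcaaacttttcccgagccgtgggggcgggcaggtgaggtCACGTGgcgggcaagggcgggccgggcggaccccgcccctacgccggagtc
Slc2a1: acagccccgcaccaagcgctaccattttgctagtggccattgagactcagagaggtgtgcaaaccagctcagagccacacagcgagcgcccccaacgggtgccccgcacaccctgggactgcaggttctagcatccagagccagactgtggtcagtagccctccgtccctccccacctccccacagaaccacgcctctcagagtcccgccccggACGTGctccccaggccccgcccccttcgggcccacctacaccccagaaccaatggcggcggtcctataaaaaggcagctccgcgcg
Slc44a1: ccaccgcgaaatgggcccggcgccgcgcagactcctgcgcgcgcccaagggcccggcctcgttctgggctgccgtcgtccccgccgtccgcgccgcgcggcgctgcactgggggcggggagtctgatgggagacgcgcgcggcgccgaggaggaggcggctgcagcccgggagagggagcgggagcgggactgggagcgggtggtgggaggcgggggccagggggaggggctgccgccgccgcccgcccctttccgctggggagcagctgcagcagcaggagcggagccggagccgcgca
Promoters of 124 of the 151 genes were found in the reference table, some with several starts. ACGTG lay in 26.3% of 175 carrier promoters, 24.0% of 8413 promoters of genes on the array and 19.6% of all 32851. Among 34 promoters of the carriers that differed between stages it lay in 13 (38.2%). These 34 belong to 23 of the 33 genes that differed, and nearby starts of a gene were counted separately, so they are not independent. The GC box letters GGGCGG, on either strand, lay in 61.7% of carrier promoters, 57.0% of those of genes on the array and 35.7% of all, and in 24 (70.6%) of those 34. The SOX core ACAATG lay in 3.43%, 8.07% and 12.6%, and in 2 (5.88%) of the 34. Each motif was counted on its own, so matches of different motifs may overlap. A match here is only a match of letters.

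The arrays had medians of 174 to 207 index units, with between 22.6 and 27.2% of values at the floor or under it. E16 replicates 3 and 4 were each closest to E18 replicate 1 by rank correlation over all probe sets. P0 replicates 1, 3 and 4 were closest to E16 replicate 1, E18 replicate 3 and E16 replicate 4, each of the same replicate number. The rank correlation of P0 replicates 1 and 4 with each other was 0.895, the lowest within a stage. For the GAPDH controls, the ratio of 3' to 5' signal, which grows as amplified RNA gets shorter, was 2.33 to 3.41 at E9.5, 3.18 to 4.53 at E12 and 3.84 to 9.12 from E14 on. Whether the arrays of one stage stem from different animals is not stated in the labels, so the tests measure only the spread between these samples.

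Of the 155 carrier probe sets tested, 36 (23.2%, 33 genes) differed between any of the 6 stages by the moderated F-test at an adjusted p under 0.05, against 29.0% of all probe sets tested. Within the 5 nerve stages 16 differed (10.3%, 15 genes), against 13.1% of all. From E9.5 to E12, 14 probe sets of 13 genes rose (9.03%) against 9.70% of all, and 3 fell (1.94%) against 4.41% of all. From E12 to E14, 5 probe sets of 4 genes fell (3.23%, background 1.02%) and 0 rose (background 1.08%), where 4 were higher at an unadjusted p under 0.05. From E14 to E16 limma called 0 higher and 0 lower, against backgrounds of 0.586% and 1.10%, with 6 and 14 at an unadjusted p under 0.05. From E16 to E18 it called 0 in either direction, against 0.00960% higher and 0.0672% lower of all, with 6 and 4 at an unadjusted p under 0.05. From E18 to P0 1 probe set was higher (0.645%, background 0.0384%) and 0 were lower (background 0.0864%), where 7 were lower at an unadjusted p under 0.05. The 1 called is Slc6a6, which was chosen for its rise at birth, so nothing is read from that share. Over the whole nerve series, P0 against E12, 7 rose (4.52%) against 4.53% of all and 12 fell (7.74%) against 11.8% of all. The carriers' share was thus near or below the background in the comparisons that called most of them.

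The median log2 change of the carriers was 0.06 from E9.5 to E12, where that of all probe sets tested was 0.01. It was 0.05 from E12 to P0, where all had -0.02. In the 42 called probe set changes the arrays of the compared stages did not overlap, which also fixes their sign within each array lot. Both rest on the same values as the calls and are not further support for them.

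**Figure D1:**
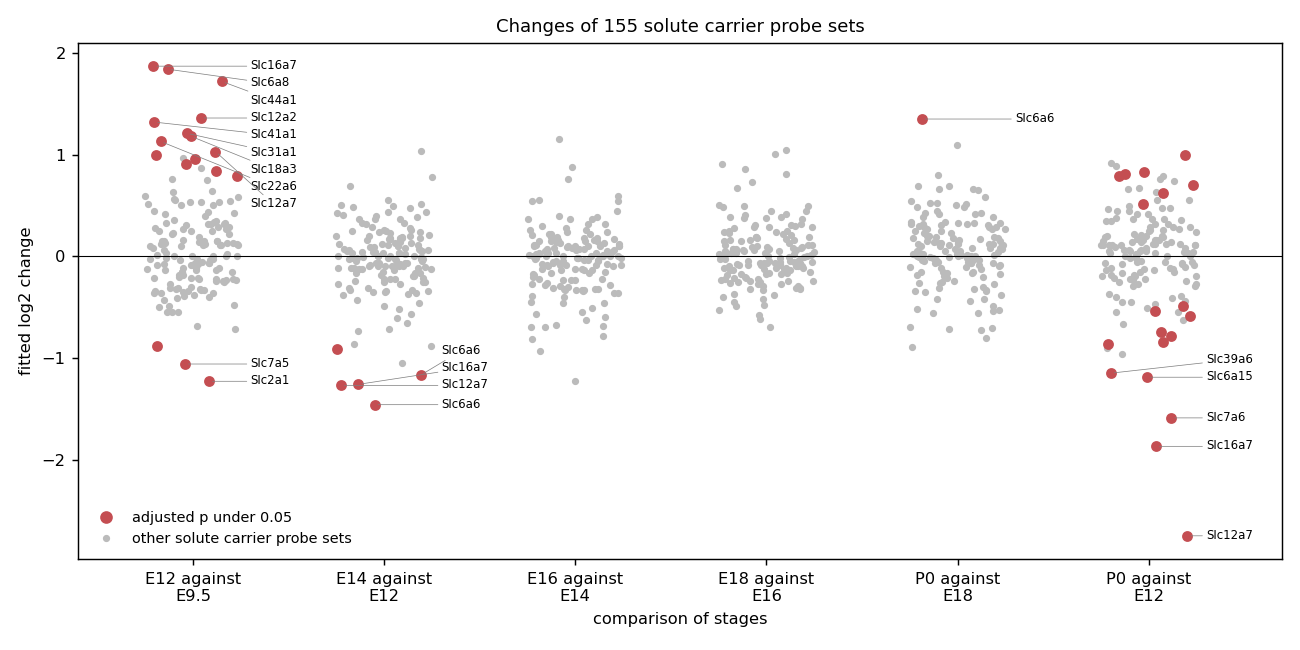
Fitted log2 change of each of the 155 tested carrier probe sets (points, spread sideways for legibility) in the 6 comparisons of stages; red points passed an adjusted p of 0.05, and genes are named where such a change exceeded 1 in size. Most red points lie in E12 against E9.5 (14 up, 3 down) and in P0 against E12 (7 up, 12 down).

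**Figure D2:**
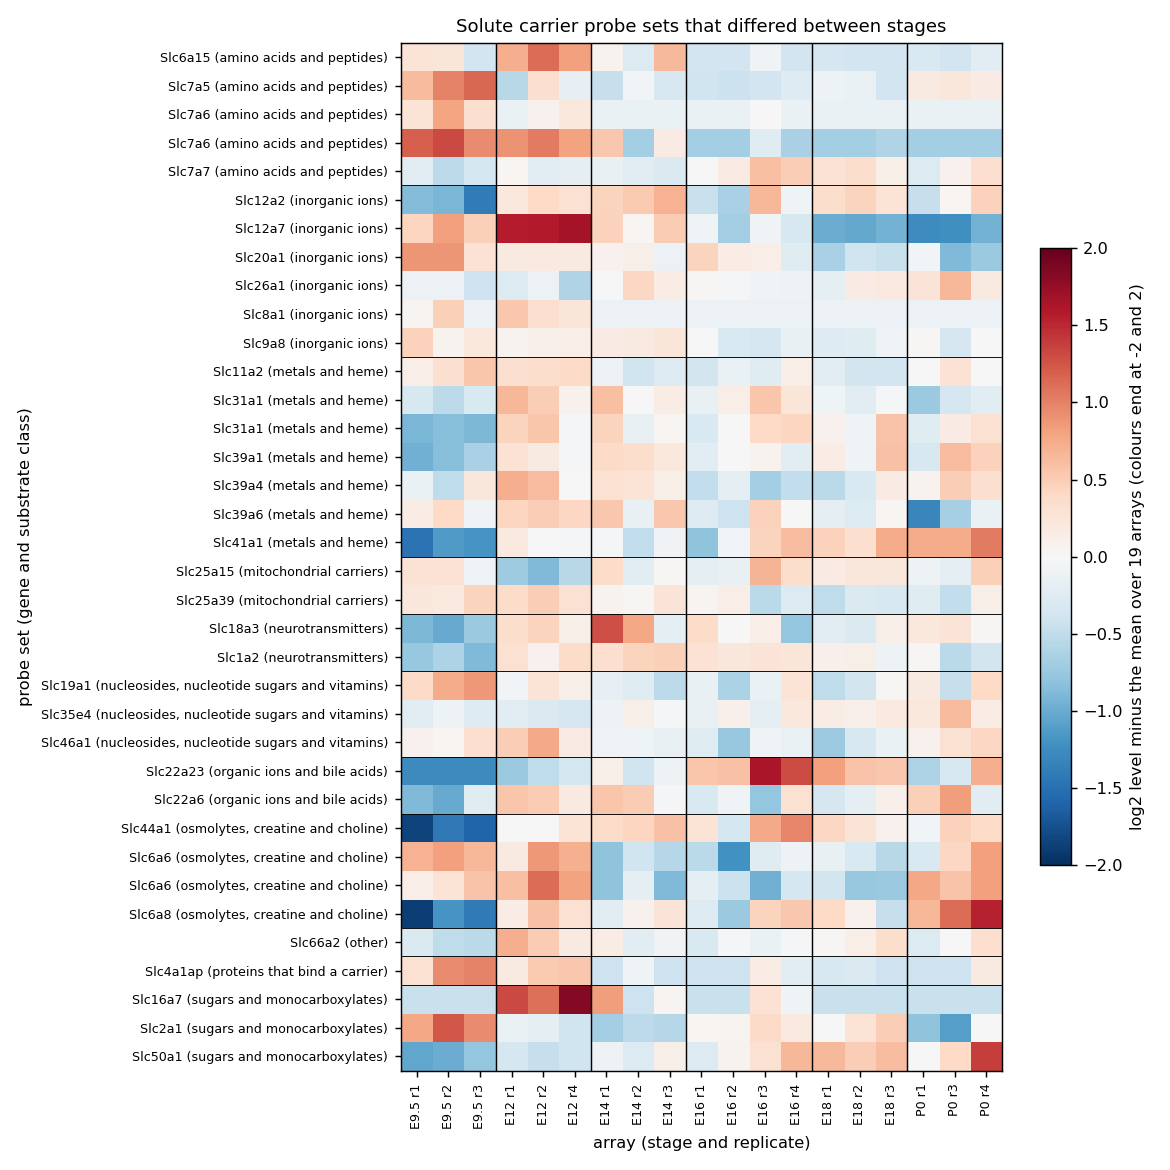
The 36 carrier probe sets that differed between the 6 stages, as the log2 level on each of 19 arrays minus the probe set's mean over all arrays, ordered by substrate class. Slc12a7 and Slc16a7 stand highest at E12, Slc44a1, Slc6a8 and Slc41a1 lowest at E9.5, and both Slc6a6 probe sets are low from E14 to E18.

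Taurine, creatine and choline carriers were the class with 8 probe sets tested, for 6 genes. Slc6a6 takes up taurine, an osmolyte and the most familiar substrate of this transporter, together with sodium and chloride. Its gene lies on chromosome 6 (GRCm38.p6, 91684048 to 91759063). The probe set 97383_at read 1296, 1430 and 1750 index units at E9.5 and 1788, 2565 and 2062 at E12. It read 675, 1046 and 643 at E14, then 1040, 879, 609 and 924 at E16, and 912, 698 and 706 at E18. At P0 it read 2014, 1754 and 2087. All 10 arrays from E14 to E18 lay below the 9 arrays of E9.5, E12 and P0. The fall from E12 to E14 was 1.46 on the log2 scale (standard error 0.22, 2.75-fold, adjusted p = 0.0012). P0 was 1.35 log2 units above E18 (standard error 0.22, 2.54-fold) with no overlap between arrays, and between 1.28 and 1.47 over 28 alternatives. It lost its call in 8 of these 28. Among them were no filter, the GAPDH 3'/5' signal as a covariate, and leaving out the lot 1 arrays of E16 and P0. The others left out E14 replicate 1, E18 replicate 1 or 2, or P0 replicate 1 or 3. This rise at birth was known when Slc6a6 was chosen and is given as a description.

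The other Slc6a6 probe set, 94405_at, shared the middle of the course but not its end. It read 2682, 2924 and 2635 at E9.5, 1873, 3036 and 2725 at E12, and 953, 1260 and 1124 at E14. It fell from E12 to E14 by 1.17 on the log2 scale (standard error 0.29, adjusted p = 0.046). That call was lost in 17 of 28 alternatives, where adjusted p over all 28 ran from 0.00052 to 0.24. E16 had 1142, 718, 1407 and 1551, E18 had 1501, 1347 and 1131, and P0 had 1348, 2221 and 2925. P0 replicate 1 lay inside the E18 range and the other two lay above it, so the stages overlapped. The difference at birth was 0.65 log2 units for this probe set (standard error 0.29). P0 did not pass the test against E12 in either probe set (log2 changes of -0.12 and -0.27, standard errors 0.22 and 0.29, adjusted p = 0.78 and 0.58).

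**Figure D3:**
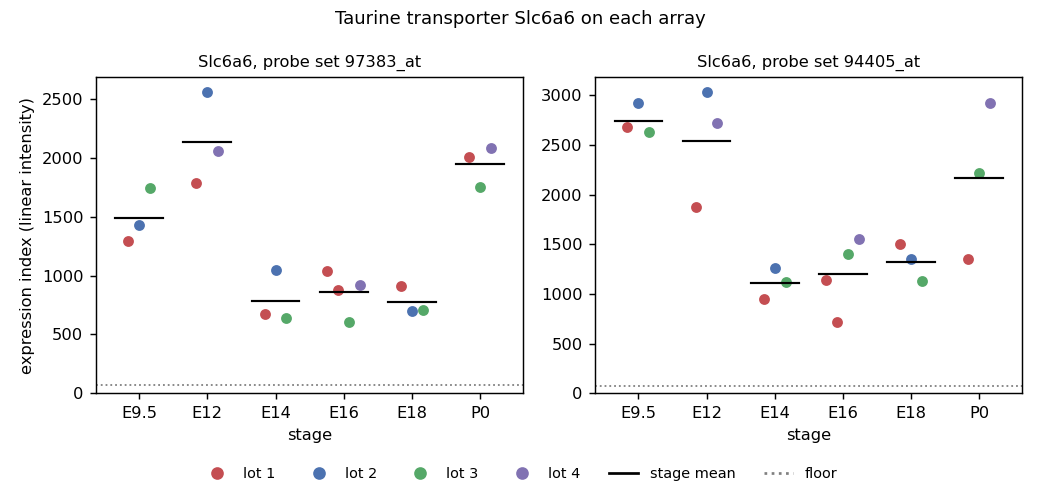
Expression index of the taurine transporter Slc6a6 on each array for its 2 probe sets, by stage, with the array lot as colour, the stage mean as a bar and the floor as a dotted line. The left probe set has all P0 arrays between 1754 and 2087, above the 698 to 912 of E18; in the right one, the lot 1 array of P0 (1348) lies within the E18 range.

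Slc6a8 carries creatine, the energy buffer that creatine kinase charges. Its probe set 95625_at read 151, 248 and 211 at E9.5 and 624, 841 and 691 at E12, a rise of 1.84 log2 units (standard error 0.33, 3.58-fold, adjusted p = 0.00088). The mean stayed between 582 and 594 from E14 to E18. At P0 the arrays read 884, 1210 and 1630, above all E18 arrays (743, 598 and 406), but the difference of 1.09 log2 units did not pass the test (standard error 0.33, adjusted p = 0.21). A second probe set of Slc6a8, 97748_at, had means of 158 ± 42.4 (SD, n = 3) at E9.5 and 171 ± 16.7 (n = 3) at E12 and did not share the rise (log2 change 0.15, standard error 0.26, adjusted p = 0.81).

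Slc44a1 carries choline, the head group of phosphatidylcholine and sphingomyelin. It read 379, 507 and 450 at E9.5 and 1379, 1372 and 1649 at E12. The rise of 1.72 log2 units (standard error 0.26, 3.30-fold, adjusted p = 0.00019) set E9.5 apart from all later arrays, which ran from 1076 to 2685. Its relative Slc44a2 did not pass the test in that comparison (0.50 log2 units, standard error 0.50, adjusted p = 0.62). Slc6a12, the betaine and GABA carrier, did not pass either (0.25 log2 units, standard error 0.15, adjusted p = 0.32). From E18 to P0 all 8 probe sets of the class had a higher fitted value, with a median of 0.33 log2 units, where 5390 of all 10414 were higher with a median of 0.01. The 8 include both probe sets of Slc6a6, chosen for its rise at birth and the source of the 1 call, and Slc44a1 and Slc44a2 with changes of 0.01 and 0.00, so the count is a description. With quantile normalization 7 of 8 were higher, with a median of 0.38.

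Of the cation-chloride cotransporters, Slc12a2 and Slc12a7 both rose from E9.5 to E12, and Slc12a7 then fell within the nerve. Slc12a2, which loads the cell with sodium, potassium and chloride, read 1337, 1291 and 919 at E9.5 and 2799, 3205 and 2992 at E12. That rise was 1.36 log2 units (standard error 0.28, 2.57-fold, adjusted p = 0.003). It then read 3298, 3477 and 3928 at E14, 1791, 1546, 3856 and 2295 at E16, 3112, 3308 and 2942 at E18 and 1764, 2500 and 3348 at P0. The lot 1 arrays of E16 and P0 were the low ones, and no later comparison passed the test.

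Slc12a7, which lets potassium and chloride leave the cell, had the smallest p of the carriers over the nerve stages (adjusted p = 7.4e-08). It read 243, 317 and 251 at E9.5 and 533, 537 and 570 at E12, a rise of 1.03 log2 units (standard error 0.18, adjusted p = 0.00073). It read 247, 185 and 255 at E14, a fall of 1.27 on the log2 scale from E12 (standard error 0.18, adjusted p = 0.00051). The course went on through 169, 111, 172 and 143 at E16 and 90.5, 88.0 and 92.7 at E18 to 75.3, 76.7 and 93.1 at P0. P0 was 6.72-fold below E12 (log2 change -2.75, standard error 0.18, adjusted p = 2.2e-08). Each of these calls held in all 28 alternatives. The P0 values lie just above the floor. Neither step from E14 to E16 (-0.63, standard error 0.17, adjusted p = 0.073) nor from E16 to E18 (-0.70, standard error 0.17, adjusted p = 0.26) passed on its own. Slc12a4, another potassium and chloride exporter, had means of 173 ± 5.91 (n = 3) at E12 and 344 ± 136 (n = 3) at P0, with no overlap, a log2 change of 0.92 (standard error 0.31, adjusted p = 0.053).

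Other ion carriers changed less. Slc20a1, a sodium-phosphate cotransporter, read 391, 391 and 389 at E12 and 330, 185 and 205 at P0, a fall of 0.75 on the log2 scale (standard error 0.22, adjusted p = 0.028; up to 0.13 over the alternatives, lost in 6 of 28). The sulfate carrier Slc26a1 rose from E12 to P0, at least 1.62-fold (adjusted p = 0.011, lost in 3 of 27 alternatives that tested it). A probe set of the sodium-calcium exchanger Slc8a1, 99524_at, was at the floor on all P0 arrays and fell at least 1.41-fold (adjusted p = 0.021). It lies outside the rule for naming genes, and the other tested probe set of Slc8a1 had a log2 change of 0.04 (standard error 0.11). Of the 19 ion carrier probe sets tested, 2 rose from E9.5 to E12, and 1 rose and 3 fell from E12 to P0.

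Among sugar and monocarboxylate carriers, Slc2a1 and Slc16a7 went opposite ways at the first step. Slc2a1, the glucose carrier of many growing cells and of the blood-nerve and blood-brain barriers, read 378, 521 and 423 at E9.5 and 200, 194 and 167 at E12. It fell by 1.23 on the log2 scale (standard error 0.22, 2.34-fold, adjusted p = 0.0012). It read 138, 153 and 148 at E14, then 227, 229, 287 and 253 at E16, 220, 266 and 311 at E18, and 126, 102 and 220 at P0. The nerve stages differed by the F-test (adjusted p = 0.018). The E16 and E18 arrays were all above the E12 and E14 arrays, and P0 lay below E18 without passing the test (-0.89, standard error 0.22, adjusted p = 0.13).

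Slc16a7, a high-affinity carrier of lactate, pyruvate and ketone bodies, read 3.46, 0 and 1.72 at E9.5, below the floor, and 233, 202 and 335 at E12. The rise was at least 3.66-fold (log2 change 1.87 with the floor, standard error 0.26, adjusted p = 0.00011). It read 167, 70.2 and 97.4 at E14, a fall of 1.26 on the log2 scale (standard error 0.26, adjusted p = 0.014; up to 0.09 over the alternatives, lost in 4 of 28). The 4 E16 arrays read 62.2, 66.7, 114.5 and 87.8. All E18 and P0 arrays were below the floor again, and P0 was at least 3.66-fold below E12 (adjusted p = 0.00012). The course is that of a carrier measurable at E12 and E14 and in part at E16. Emb, embigin, a membrane partner that escorts Slc16a7 to the cell surface, also fell through the nerve stages. Its E12 arrays read 250, 341 and 354, its E14 arrays 117, 150 and 144 and its P0 arrays 70.1, 65.0 and 61.6. It was at least 4.51-fold lower at P0 than at E12 (log2 change -2.17, standard error 0.18, adjusted p = 4.2e-07). Unlike Slc16a7 it was already high at E9.5 (512, 570 and 374).

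Slc50a1, a sugar carrier of the SWEET family, read 183, 170 and 178 at E12 and 234, 307 and 610 at P0. That rise was 1.00 log2 units (standard error 0.27, adjusted p = 0.02), and it was lost in 4 of 28 alternatives, among them leaving out P0 replicate 4 (adjusted p = 0.053). E18 already read 366, 329 and 359, above every E12 array. The class as grouped here also holds Slc27a1 to Slc27a5, which carry fatty acids. Of the 15 probe sets of the class, 1 rose and 1 fell from E9.5 to E12, 1 fell from E12 to E14, and 1 rose and 1 fell from E12 to P0. The monocarboxylate carrier Slc16a1 was above the floor on 1 array and was not tested.

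**Figure D4:**
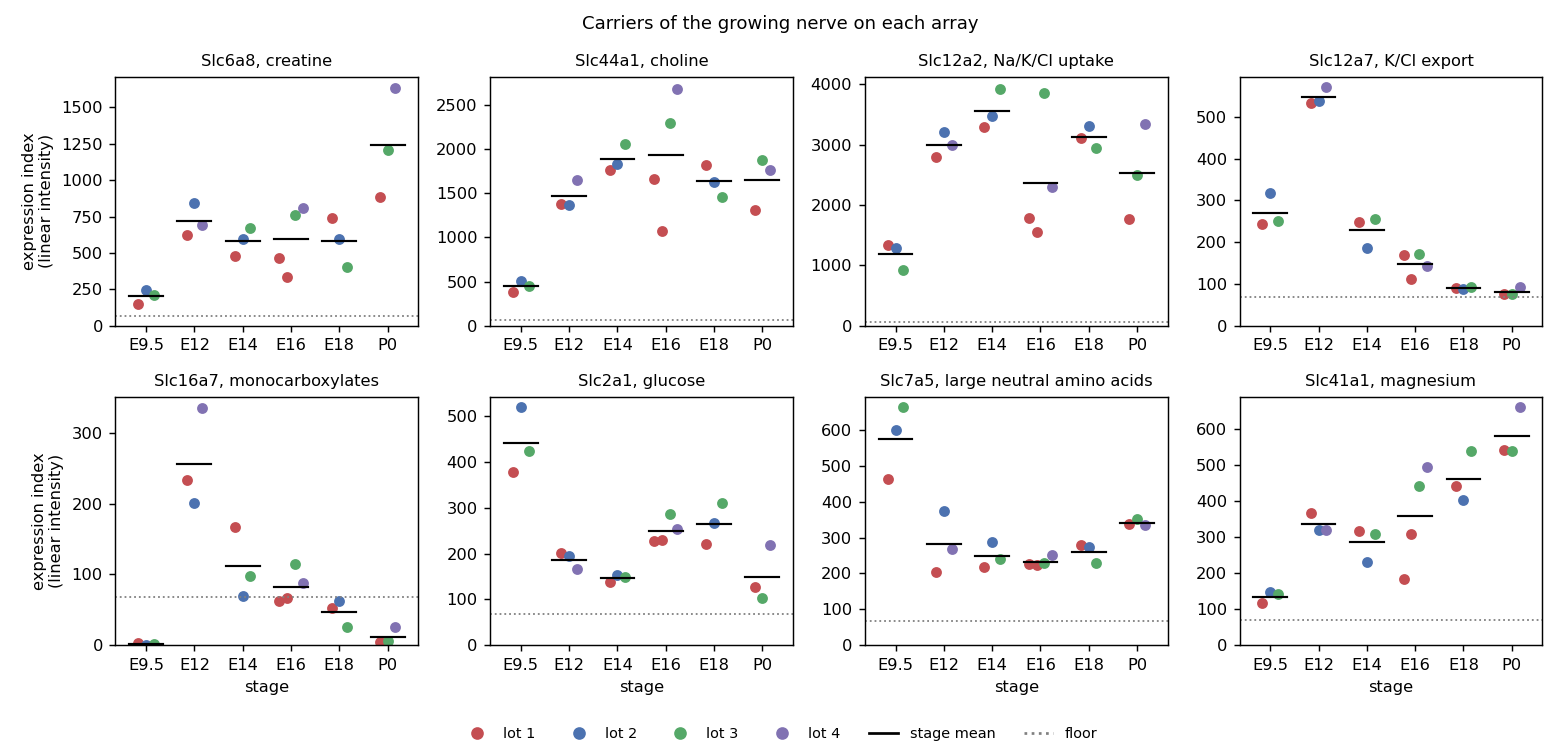
Expression index on each array for 8 carriers, by stage, with the array lot as colour, the stage mean as a bar and the floor as a dotted line; each vertical axis starts at 0 and has its own scale. Slc6a8, Slc44a1, Slc12a2 and Slc41a1 are lowest at E9.5, Slc12a7 and Slc16a7 are highest at E12, and Slc2a1 and Slc7a5 are highest at E9.5.

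Of the 22 amino acid and peptide carrier probe sets, 1 rose and 1 fell from E9.5 to E12, and 2 fell from E12 to P0. Slc7a5, the light chain of the exchanger for large neutral amino acids, read 465, 600 and 664 at E9.5 and 205, 373 and 269 at E12. The fall was 1.06 on the log2 scale (standard error 0.19, 2.08-fold, adjusted p = 0.0011). Its heavy chain, Slc3a2, did not pass the test in that comparison (log2 change 0.53, standard error 0.31, adjusted p = 0.33), with overlapping arrays. At P0 Slc7a5 read 339, 351 and 334, above the E18 arrays (279, 274 and 229), with a log2 change of 0.39 that did not pass (standard error 0.19, adjusted p = 0.44).

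Slc7a6, another light chain, which exchanges cationic for neutral amino acids, left the measurable range in the nerve. Its probe set 99863_at read 205, 225 and 190 at E12 and 159, 64.6 and 123 at E14. By P0 all 3 arrays were below the floor, at least 3.01-fold under E12 (log2 change -1.59, standard error 0.22, adjusted p = 0.00013). The step from E12 to E14, 0.91 on the log2 scale with 1 E14 array at the floor (adjusted p = 0.046), was lost in 22 of 28 alternatives, where adjusted p ran from 0.0076 to 0.31. The second probe set, 100417_at, was mostly below the floor from E14 on. Slc6a15, a carrier of branched-chain amino acids and proline, read 108, 105 and 66.2 at E9.5, 147, 194 and 158 at E12 and 72.2, 57.0 and 77.3 at P0. It rose at least 1.79-fold from E9.5 to E12 (adjusted p = 0.013, lost without E9.5 replicate 3 at 0.071 and without E12 replicate 2 at 0.069). It fell at least 2.27-fold from E12 to P0 (adjusted p = 0.001).

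Of 23 metal carrier probe sets, 4 rose from E9.5 to E12. Slc41a1, a magnesium carrier, read 116, 146 and 142 at E9.5 and 367, 319 and 318 at E12, up 1.32 log2 units (standard error 0.27, 2.49-fold, adjusted p = 0.0034). Its P0 arrays, 541, 537 and 659, lay above all E12 arrays, but that difference did not pass (0.79, standard error 0.27, adjusted p = 0.061). Slc31a1, the high-affinity copper importer, rose in both of its probe sets. The first, 103845_at, read 316, 330 and 320 at E9.5 and 812, 873 and 584 at E12 (1.21 log2 units, standard error 0.24, adjusted p = 0.002). The second, 101877_at, rose by 0.79 (standard error 0.21, adjusted p = 0.016), a call lost in 3 of 28 alternatives with adjusted p up to 0.092. From E12 to P0 101877_at fell by 0.84 on the log2 scale (adjusted p = 0.011, lost in 3 of 28 alternatives), while 103845_at had a change of -0.25 that did not pass (adjusted p = 0.54). Slc39a1, a zinc importer, outside the rule for naming genes, rose by 0.96 in 96832_at (standard error 0.22, adjusted p = 0.0058) and had -0.22 in 100373_at (standard error 0.16, adjusted p = 0.44).

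Within the nerve, 3 metal carrier probe sets fell from E12 to P0. Slc39a6, a zinc importer, read 1686, 1761 and 1678 at E12 and 509, 791 and 1140 at P0, a fall of 1.15 on the log2 scale (standard error 0.27, adjusted p = 0.0084; 0.089 with the GAPDH 3'/5' signal as a covariate). Slc30a5, which moves zinc into the secretory pathway, fell by 0.86 in 94471_r_at (adjusted p = 0.047), a call lost in 21 of 28 alternatives. Its other probe set, 94470_i_at, had a change of -0.96 that did not pass (standard error 0.34, adjusted p = 0.064). The suffix r marks a probe set designed with relaxed rules. Slc11a2, the iron importer, differed over the nerve stages in 104451_at (F-test, adjusted p = 0.025), with 324, 332 and 339 at E12, 226, 202 and 200 at E18 and 263, 319 and 262 at P0. Its other probe set, 102642_at, kept means between 481 and 565 over the nerve stages. The zinc importer Slc39a4 differed in 162284_r_at (F-test, adjusted p = 0.028), with a mean of 990 ± 247 (n = 3) at E12, 519 ± 74.8 (n = 4) at E16 and 877 ± 128 (n = 3) at P0, while 97320_at kept means between 85.7 and 108.

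Genes that bind metals inside the cell were measured beside these carriers. Atox1, the copper chaperone, rose from E9.5 to E12 by 0.86 log2 units (standard error 0.21, adjusted p = 0.011). Of the metallothioneins, Mt1 and Mt2 rose from E12 to P0, while Mt3 was not called and had means of 1058 at E12 and 1097 at P0. Mt1 read 270, 198 and 73.9 at E12 and 585, 2770 and 1013 at P0 (log2 change 2.90, standard error 0.51, adjusted p = 0.00091). Mt2 read 539, 470 and 432 at E12 and 1095, 2328 and 898 at P0 (log2 change 1.46, standard error 0.31, adjusted p = 0.0035).

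Of 22 mitochondrial carrier probe sets, 1 fell from E9.5 to E12, and 3 rose and 2 fell from E12 to P0. Slc25a15, the ornithine carrier of the urea cycle, had its low point at E12. It read 788, 787 and 607 at E9.5, 393, 349 and 439 at E12 and 832, 558 and 655 at E14, and all 16 arrays outside E12 lay above all E12 arrays. The fall to E12 was 0.88 on the log2 scale (standard error 0.23, adjusted p = 0.016) and was lost in 5 of 28 alternatives, with adjusted p up to 0.074. P0 was 0.79 above E12 (standard error 0.23, adjusted p = 0.028), lost in 3 of 28.

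Slc25a4, the ADP/ATP exchanger of the inner membrane, read 4355, 4287 and 3879 at E12 and 1799, 2200 and 3645 at P0. It fell by 0.78 on the log2 scale (standard error 0.19, adjusted p = 0.012, lost in 4 of 28 alternatives). Slc25a39, a carrier of glutathione, fell by 0.59 (adjusted p = 0.036; 0.27 after quantile normalization, lost in 9 of 28). The dicarboxylate carrier Slc25a10 rose by 0.83 log2 units (standard error 0.21, adjusted p = 0.014, lost in 2 of 28). Slc25a45 rose by 0.51 with an adjusted p that rounds to 0.05 and was lost in 18 of 28.

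Neurotransmitter carriers gave 2 rises among 10 probe sets from E9.5 to E12. Slc1a2, a glutamate carrier best known from astrocytes, read 131, 145 and 121 at E9.5 and 274, 236 and 286 at E12, up 1.00 log2 units (standard error 0.14, 2.01-fold, adjusted p = 0.00014). It read 282, 305 and 310 at E14, and at P0 it read 227, 153 and 173, a fall of 0.54 from E12 (standard error 0.14, adjusted p = 0.017, lost in 5 of 28 alternatives). Slc18a3, the vesicular acetylcholine carrier, read 101, 94.6 and 114 at E9.5 and 242, 258 and 205 at E12 (1.18 log2 units, standard error 0.31, adjusted p = 0.014; lost in 5 of 28). Glul, which makes glutamine from the glutamate that such carriers take up, was lower at E16 than at E14 in 94852_at by 1.79 on the log2 scale (standard error 0.29, adjusted p = 0.002). Its other probe set, 161826_r_at, had means between 938 and 1196 over the nerve stages.

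Of the 12 organic ion and bile acid carriers, 1 rose from E9.5 to E12 and 1 from E12 to P0. Slc22a6, the renal organic anion exchanger, read 766, 707 and 1203 at E9.5 and 2080, 2025 and 1604 at E12 (1.13 log2 units, standard error 0.30, adjusted p = 0.016; lost in 6 of 28 alternatives). Slc22a23, a member of the same family, read 20.9, 26.4 and 17.8 at E9.5, all below the floor, and 99.5, 117 and 131 at E12. With the E9.5 arrays raised to the floor, the fitted rise was at least 1.68-fold and did not pass (adjusted p = 0.13). Within the nerve it peaked at E16 with 242, 250, 516 and 409, and P0 had 109, 133 and 274. The nerve stages differed by the F-test (adjusted p = 0.0069). Slc22a21, of the carnitine carrier group, was higher at P0 than at E12 by 0.81 log2 units with an adjusted p that rounds to 0.05, lost in 21 of 27 alternatives.

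Carriers of nucleosides, nucleotide sugars and vitamins gave 1 rise from E12 to P0 among 20 probe sets. That was Slc35e4, of the nucleotide sugar family, with 718, 683 and 666 at E12 and 972, 1294 and 934 at P0 (0.62 log2 units, standard error 0.14, adjusted p = 0.0077 and at most 0.044 over 28 alternatives). Slc46a1, the proton-coupled folate carrier, differed over the nerve stages (adjusted p = 0.019). It read 211, 253 and 168 at E12, 91.3, 120 and 137 at E18, and 160, 186 and 201 at P0. Outside the carriers proper, Slc66a2 rose from E9.5 to E12 (0.91 log2 units, standard error 0.18, adjusted p = 0.002). Of the 3 genes named for a protein that binds a carrier, Slc4a1ap differed over all 6 stages (adjusted p = 0.0023), with 113, 175 and 182 at E9.5 and, from E14 on, arrays on both sides of the floor, the highest at 103.

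**Figure D5:**
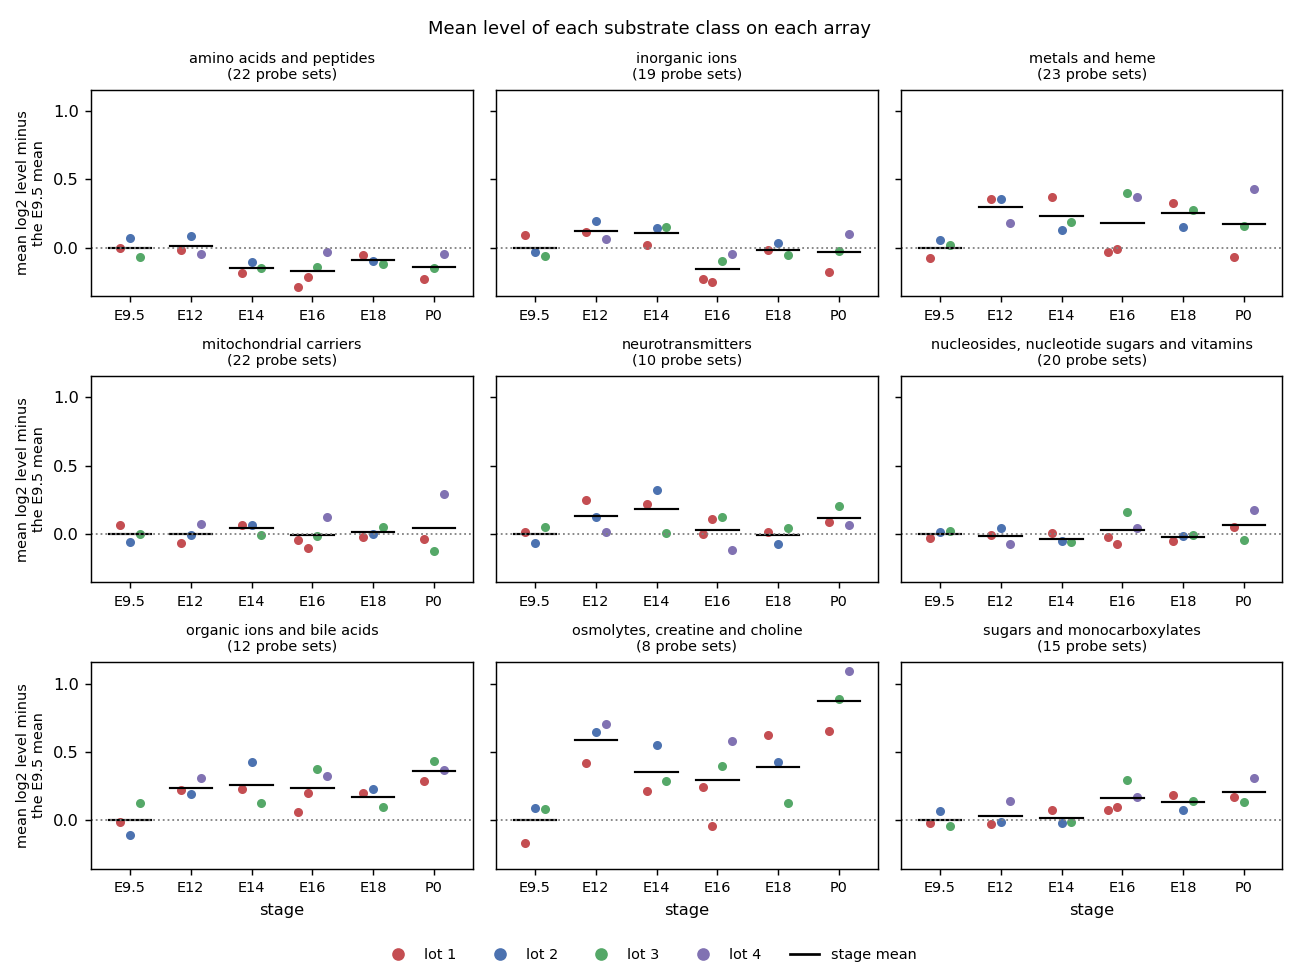
Mean log2 level of the tested probe sets of each substrate class on each array, minus the class's E9.5 mean, by stage, with the array lot as colour and the stage mean as a bar. The osmolyte, creatine and choline class moved most of the 9 classes shown, from a mean log2 level of 8.74 at E9.5 to 9.62 at P0. It holds both probe sets of Slc6a6, a gene chosen for its rise at birth. In every class shown except the neurotransmitter carriers, the lot 1 arrays of E16 lay below those of lots 3 and 4. The same E16 arrays had lower medians over all probe sets (177 and 174 against 201 and 196 index units). The sugar and monocarboxylate class also holds the fatty acid carriers Slc27a1 to Slc27a5.

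As whole classes, osmolyte, creatine and choline carriers had mean log2 levels of 8.74 ± 0.15 (SD, n = 3) at E9.5, 9.33 ± 0.15 (n = 3) at E12 and 9.62 ± 0.22 (n = 3) at P0. Between these, E14, E16 and E18 had 9.09, 9.04 and 9.13. These means include both probe sets of Slc6a6, which was chosen for its rise at birth. From E12 to E14 these were the 2 calls of the class, whose 8 probe sets had a median change of -0.03. From E18 to P0 their changes were 1.35 and 0.65, where the class median was 0.33. The dip from E14 to E18 is therefore not read as a trait of the class. Over all carriers tested the mean was 8.05 at E9.5, 8.17 at E12 and 8.16 at P0, and over all probe sets tested 8.10, 8.21 and 8.09. Metal carriers had 8.13 ± 0.07 at E9.5 and 8.42 ± 0.10 at E12. At that step 17 of 23 probe sets had a higher fitted value (median 0.15), and 13 of 23 with quantile normalization (median 0.04). The medians over all probe sets tested were 0.01 and -0.05. From E12 to P0 the metal class had 9 of 23 probe sets with a higher fitted value (median -0.14), and 13 of 23 with quantile normalization (median 0.05), so its direction depends on the scaling. The sugar and monocarboxylate class had 12 of 15 higher over that span (median 0.36), and 13 of 15 with quantile normalization. That class also holds the fatty acid carriers Slc27a1 to Slc27a5. Over all probe sets tested, 4966 of 10414 were higher from E12 to P0 (median -0.02), and 5843 of 10418 with quantile normalization (median 0.07).

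Genes that work with these carriers were followed as a fixed list. Csad, which makes the taurine precursor hypotaurine, read 111, 129 and 128 at E9.5 and 319, 390 and 518 at E12 (1.71 log2 units, standard error 0.32, adjusted p = 0.0016). It was not called in any later comparison. Ckb, the brain-type creatine kinase, rose at the same step as Slc6a8, by 1.58 (standard error 0.30, adjusted p = 0.0016). Gatm, which makes the precursor of creatine, read 88.5, 34.8 and 35.6 at E12, 248, 291 and 360 at E14 and 1012, 1648 and 2955 at P0. It rose at least 3.97-fold from E12 to E14 and at least 22.8-fold from E12 to P0 (adjusted p = 0.0088 and 5.7e-07). The kinase Wnk1, which regulates cation-chloride cotransport, rose from E9.5 to E12 in 2 of 3 probe sets (1.81 and 1.54 log2 units, adjusted p = 0.0069 and 0.0058). In the third its means were 719 ± 274 and 897 ± 154 (n = 3 each, adjusted p = 0.66). Its substrate kinase Stk39 rose from E12 to P0 (1.18 log2 units, adjusted p = 0.0094).

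Markers of the labelled cells and of others were measured on the same arrays, with the probe set of highest mean for each gene. Of the 10 glial markers, 7 had a named probe set, and their summed index was 4841 to 5811 at E9.5, 10650 to 13040 at E12 and 11590 to 18830 at P0. Sox10 and Erbb3 were above the floor on every array, Mbp and Pmp22 rose from E12 to E14, and S100b was at 0 on the E9.5 arrays. Of the 7 glial markers, 1 was higher and 1 lower at E16 than at E14. At P0 2 of them were higher and 1 lower than at E12. Of 11 macrophage markers, 5 rose from E9.5 to E12 and 4 fell from E12 to P0, and the others were not called there. Of all probe sets tested, 9.70% rose from E9.5 to E12, and 4.53% rose and 11.8% fell from E12 to P0. The summed index of the macrophage markers was 1771 to 2074 at E9.5, 2814 to 5473 at E12, 2314 to 3888 at E14 and 1761 to 2070 at P0. Ctss, 1 of the 11, had means of 6.37, 930, 441 and 24.2 at those stages, where the Slc16a7 means were 1.73, 256, 112 and 11.9. On the single E12 arrays Ctss read 1719, 850 and 222, and the array lowest in Ctss was the highest in Slc16a7. Lyz2, another defining macrophage marker, was above the floor on too few arrays to be tested. Erythroid markers were summed at 2579 to 2869 at E9.5, 3876 to 11010 at E12 and 2580 to 3064 at P0, with 3 of 9 higher at E12 than at E9.5. At P0 2 of the 9 were lower than at E12. Fibroblast markers were summed at 2712 to 3697, 9582 to 10580 and 19000 to 25260, with 3 of 8 higher at E12. At P0 3 of the 8 were higher and 1 lower than at E12. The part of other cells in the changes of Slc16a7, Slc12a7, Slc6a15 and the carriers that rose at E12 was not tested. Fewer cells of a type and less RNA per cell cannot be told apart in such samples.

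Slc4a1 and Slc11a1, carriers best known from red cells and macrophages, are given as a description only. Slc4a1, the anion exchanger of red cells, had a log2 change of -0.25 from E9.5 to E12 (standard error 0.29, adjusted p = 0.67). Slc11a1, the metal carrier of macrophage phagosomes, had 0.45 (standard error 0.23, adjusted p = 0.23), with no overlap between the arrays. Of the endothelial markers, 1 of 7 was lower at E12 than at E9.5. Neuronal markers were summed at 1815 to 2028 at E9.5 and 1379 to 1652 at E12, and skeletal muscle markers at 1295 to 1452 and 1379 to 1679.

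The 30 carrier probe sets that were not tested included 23 at or below the floor on every array. Among genes with no tested probe set were the cystine carrier Slc7a11, the glutamate carrier Slc1a1, the glucose carriers Slc2a2 and Slc5a1 and the organic cation carrier Slc22a2. For these the arrays give only an upper bound. At the other end, 116 probe sets were above the floor on all 19 arrays. Where a gene had several probe sets (29 genes, up to 4 each), each probe set was tested by itself. Slc6a6, Slc6a8, Slc7a6, Slc8a1, Slc30a5, Slc31a1 and Slc39a1 each had a stage comparison called in 1 tested probe set and not in the other. Slc39a4, Slc11a2 and Slc19a1 had such a split in an F-test.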

How the data were processed

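RNA of sorted cells was measured on 19 arrays of 6 stages. Per the labels' protocols, the authors scanned the arrays with MAS 5.0, normalized them with the smoothing spline of dChip and computed a model-based expression index with probe sensitivities from 18 arrays. The deposited values are intensities on a linear scale. The sources used here do not give the version of dChip. There were 12488 probe sets, of which 66 are controls and were left out. Gene names came from the array's annotation, and all 151 carrier genes were found in the reference gene table (GRCm38.p6). A further probe set with several symbols, some of them carriers, was left out. Precision is limited by 3 or 4 arrays a stage.

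A floor was set at the 25th percentile of the whole table (68.5), lower values were raised to it and log2 was taken. Probe sets above the floor on at least 3 arrays, 10414 in number, were kept. A linear model with 6 stage means was fitted on all of them (limma 3.58.1 with lmFit and eBayes, R 4.3.3, 13 residual degrees of freedom). Tests were 2-sided, with Benjamini-Hochberg adjustment over the 10414 and a threshold of 0.05. A fold is 2 to the fitted log2 difference, a ratio of geometric means, and is "at least" where the lower stage has an array at the floor. The fit was tested on simulated data.

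Named were, per comparison, up to 10 called carriers in each direction by size of change, the 2 with the smallest p over the nerve stages in each substrate class, all probe sets of Slc6a6, and called partner genes. The carriers, their classes and the lists were chosen with earlier results of these data known. Slc9a3r1, Slc9a3r2, Slc4a1ap and the Slc51 family were given a class after the symbols, not the values, were seen.

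Lot numbers equal replicate numbers except at E16 replicate 2, which is of lot 1. Alternatives were other floors, no filter, quantile normalization, lot and replicate blocks, the GAPDH 3'/5' signal as a covariate, array weights, and leaving out arrays.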

Additional observations from a re-analysis of the deposited data

Results flagged for a closer look

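Slc6a15 (161036_at) at E16: replicate 3, at a log2 level of 6.40, stood apart from the other E16 arrays, which all lay at the floor of 6.10; its gap was 1.0 of the group's range. Slc7a6 (99863_at) at E16: replicate 3 again, at 6.53 against 6.10 to 6.13, with a gap of 0.918 of the range. Both exceed Dixon's 95% critical value for 4 samples. With the other Slc6a15 arrays all raised to the floor, any value above it would give 1.0. The other Slc7a6 arrays also lay at the floor or close to it, so nothing is read from these 2 flags. For values not cut at a floor, chance passes the critical value in about 1 in 20 groups, and 2 of the 49 groups examined passed it.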

How the results depend on the processing

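Of the 42 called changes of a carrier probe set, 19 passed the test in all alternatives that tested them, 23 lost the call in 1 or more, and 0 changed sign. Array weights gave 43 calls for E12 against E9.5 (17 as reported), 17 for E14 against E12 (5), 11 for E16 against E14 (0), 22 for E18 against E16 (0), 11 for P0 against E18 (1), 36 for P0 against E12 (19), 78 over the nerve stages (16) and 92 over all 6 stages (36). E14 against E12 had 2 calls with the floor at the 10th percentile and 3 with the replicate block. E16 against E14 had 3 calls each with the floor at the 40th percentile, quantile normalization and the GAPDH covariate, and 2 without the lot 1 arrays of E16 and P0. P0 against E18 had 2 calls with quantile normalization, and 0 without the filter or without those lot 1 arrays. The cause of these differences was not tested. Over all stages, deviations of same-numbered arrays had a mean r of 0.022 over 38 pairs (-0.382 to 0.714), against -0.008 for other pairs. For arrays of the same lot the mean r was 0.042 over 39 pairs, against -0.015. Each P0 array was closest by rank correlation to an array of its own replicate number. Pairing at single stages was not tested.

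Leaving out 1 array at a time gave 12 to 20 calls for E12 against E9.5, 2 to 6 for E14 against E12, 0 to 2 for E16 against E14, 0 to 0 for E18 against E16, 0 to 10 for P0 against E18, 8 to 29 for P0 against E12, 8 to 28 over the nerve stages and 27 to 43 over all. P0 against E12 had 29 calls without P0 replicate 4, 8 without E12 replicate 1, 10 without P0 replicate 3 and 11 without E12 replicate 2. P0 against E18 had 10 calls (1 up, 9 down) without P0 replicate 4, and 0 without E14 replicate 1, E18 replicate 1 or 2, or P0 replicate 1 or 3. The nerve stages had 28 calls without P0 replicate 4, 9 without E12 replicate 1, 8 without E12 replicate 2 and 10 without E18 replicate 2. E14 against E12 had 2 calls without E14 replicate 2. Signal limits the carriers near the floor, whose folds are lower bounds.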
